A study of Homo sapiens with 4 samples.

Results

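The endoplasmic reticulum (ER)-associated degradation machinery, the set of proteins that takes misfolded proteins out of the ER and delivers them to the proteasome, was followed in FCN3-virus-transduced A549 cells. Its 36 genes were chosen by name, with earlier results of these data known, and were looked up by symbol among the 25192 genes of the deposited RNA-seq tables. All 36 were found, and all 36 were among the 14099 genes that passed the filter on low counts. A549 is a human lung adenocarcinoma cell line, and FCN3 encodes ficolin 3, a secreted lectin that passes through the ER. Cells of the control group (EV, 2 libraries) received a retrovirus that carries GFP alone, and cells of the FCN3 group (2 libraries) received the same kind of GFP vector with the full FCN3 coding sequence, tagged with the V5 epitope. RNA was taken 48 h after infection. No sorting of transduced cells is described for these libraries, and in such bulk RNA fewer cells that express a gene and less RNA per cell cannot be told apart. The labels do not say that the 2 libraries of a group came from separate experiments, and p-values measure only the spread between these libraries. FCN3 itself had 1 and 0 expected counts in the EV libraries and 722388 and 448352 in the FCN3 libraries, which checks the labels.

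ER-associated degradation begins in the ER lumen, where mannosidases trim the sugar chains of misfolded glycoproteins and lectins bind the trimmed chains. The lectins hand the substrate to a membrane complex built on the ubiquitin ligase SYVN1 (also called HRD1) and its adaptor SEL1L, through which the substrate is moved back into the cytosol and tagged with ubiquitin. The ATPase VCP and its cofactors then pull the tagged protein away from the membrane. Several genes of this machinery are textbook targets of the unfolded protein response (UPR), whose factors ATF6 and XBP1 bind the promoter motifs known as ERSE, ERSE-II and UPRE, while ATF4 binds the motif known as CARE.

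Promoter sequences are shown because several members are known UPR targets, and the motif search was chosen after the expression values were known. RefSeq promoters (250 bases before to 50 bases after the start) were on hand for 25 of the 36 genes, some with more than 1 start, and each matched GRCh37 exactly once on its own chromosome. 4 motifs were searched on both strands, namely ERSE as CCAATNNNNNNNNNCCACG, ERSE-II as ATTGGNCCACG, UPRE as TGACGTGG and CARE as TGATGNAA, of which the first 3 share the letters CCACG on either strand. ERSE was in 0 of the 25 and in 0.0769% of all 35116 RefSeq promoters of this length. ERSE-II was in the HERPUD1 promoter alone among the 25 (4.0%), against 0.0541% of all promoters. CARE was likewise in HERPUD1 alone (4.0%), near its share of 3.62% of all promoters. UPRE was found in UBE2J1 and VCP (8.0%), against 0.729% of all promoters. Members were counted per gene over all their starts, and the background per promoter. The 4 sequences shown are those of the 3 genes with a match and of HERPUD2, the paralogue of HERPUD1. They lie on GRCh37 at chr16:56965804-56966103 (HERPUD1, plus strand), chr7:35734696-35734995 (HERPUD2, minus strand), chr6:90062392-90062691 (UBE2J1, minus strand) and chr9:35072573-35072872 (VCP, minus strand). Each runs 5′ to 3′ along its gene, and capitals mark the matches, which in HERPUD1 are CARE on the opposite strand and then ERSE-II, in UBE2J1 UPRE on the opposite strand and in VCP UPRE.
HERPUD1: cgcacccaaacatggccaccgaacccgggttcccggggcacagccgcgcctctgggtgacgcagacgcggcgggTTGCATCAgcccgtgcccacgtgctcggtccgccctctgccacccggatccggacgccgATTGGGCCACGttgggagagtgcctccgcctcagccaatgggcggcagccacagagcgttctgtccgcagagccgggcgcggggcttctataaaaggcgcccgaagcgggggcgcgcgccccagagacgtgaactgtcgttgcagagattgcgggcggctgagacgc
HERPUD2: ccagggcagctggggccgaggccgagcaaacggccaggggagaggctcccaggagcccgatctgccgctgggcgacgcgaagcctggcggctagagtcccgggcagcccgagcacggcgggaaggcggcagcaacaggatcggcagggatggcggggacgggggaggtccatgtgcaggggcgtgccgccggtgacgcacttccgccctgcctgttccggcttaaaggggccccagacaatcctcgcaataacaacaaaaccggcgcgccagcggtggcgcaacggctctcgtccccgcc
UBE2J1: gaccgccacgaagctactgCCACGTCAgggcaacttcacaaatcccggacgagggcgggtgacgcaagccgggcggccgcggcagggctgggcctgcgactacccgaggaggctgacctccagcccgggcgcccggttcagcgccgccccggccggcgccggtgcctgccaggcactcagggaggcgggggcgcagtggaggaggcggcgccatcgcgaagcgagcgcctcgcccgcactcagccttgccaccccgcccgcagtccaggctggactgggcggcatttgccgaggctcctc
VCP: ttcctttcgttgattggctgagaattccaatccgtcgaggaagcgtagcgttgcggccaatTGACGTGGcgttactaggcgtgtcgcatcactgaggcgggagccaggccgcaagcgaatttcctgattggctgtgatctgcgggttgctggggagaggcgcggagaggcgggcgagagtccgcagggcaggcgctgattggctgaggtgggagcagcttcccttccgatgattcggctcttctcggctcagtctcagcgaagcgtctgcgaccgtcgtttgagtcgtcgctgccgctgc
The ERSE-II match of HERPUD1 lay at positions -117 to -107 from the start and its CARE match at -176 to -169. The UPRE match lay at -231 to -224 in UBE2J1 and at -189 to -182 in VCP. A match describes letters only, and the absence of a match speaks for these exact letters in this window alone. Near matches, which differ from a motif in some letter, were not searched. Some windows, such as those of NPLOC4, UBXN6 and HERPUD2, lay wholly inside the gene as bounded in GENCODE. Starts farther upstream in these genes were not searched. No promoter was on hand for DERL1, DERL3, RNF139, RNF185, TMEM129, STUB1, UFD1L, UBXN8, ATXN3, ERLIN1 and ERLIN2.

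Differences were uneven across the machinery. The comparison between groups without regard to replicate number called EDEM1 alone among the genes of substrate recognition. Its other called increases lay in the SYVN1 complex and 1 conjugating enzyme. The ligases outside that complex, VCP with its cofactors, the cytosolic enzymes and the remaining membrane proteins had log2 fold changes between -0.35 and 0.41, with 0 called there, and the contrast between roles was not tested. With the replicate number as a block, VCP, RNF185 and NGLY1 of these roles were called higher and NPLOC4 and ERLIN1 lower. Between groups, edgeR's quasi-likelihood test at a false discovery rate of 0.01 called 6 of the 36 genes higher (HERPUD1, SEL1L, EDEM1, SYVN1, DERL2 and UBE2J1) and 0 lower, where 0.738% of all tested genes were called higher and 0.227% lower. Before adjustment, 14 members had a p under 0.05, of which 2 were lower with the FCN3 virus, where 25.1% of all tested genes had such a p and 11.6% had it and were lower. DESeq2 called 10 members higher and 0 lower, against 4.35% and 3.29% of all tested genes. When libraries were compared within their replicate number (the replicate number as a block in the same test), 15 members were called higher and 3 lower, against backgrounds of 19.1% and 17.1% of all tested genes. The share of members called lower was thus below its background, and the share called higher was above it. With 4 libraries the blocked fit leaves little of each gene's own spread to measure. Its p-values therefore rest largely on spread pooled across genes. DESeq2 with the same block called 11 higher and 2 lower, against 8.12% and 7.89%, and did not call DERL1 (adjusted p = 0.076), AUP1 (0.027), RNF185 (0.14), NGLY1 (0.17) or NPLOC4 (0.071), which edgeR called with the block.

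The median log2 fold change of the 36 genes was 0.16, beside 0.02 over all tested genes. 10 members had a log2 fold change above 0.5, a limit chosen after the values were seen, and 0 had a change below -0.5, while 12.2% and 8.70% of all tested genes lay beyond these limits. The 10 are DERL3, HERPUD1, SEL1L, EDEM1, SYVN1, DERL2, UBE2J1, OS9, ERLEC1 and EDEM3, and they are the 10 that DESeq2 called. The next member in order was VCP at 0.41, and the remaining 25 lay between -0.35 and 0.26. In TMM-normalized counts per library, both FCN3 libraries were above both EV libraries in 19 members and below them in 5, against 28% and 26.5% of all tested genes. Members of each role and the 2 comparisons within replicate numbers are set out in the plot of fold changes by role.

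**Figure D1:**
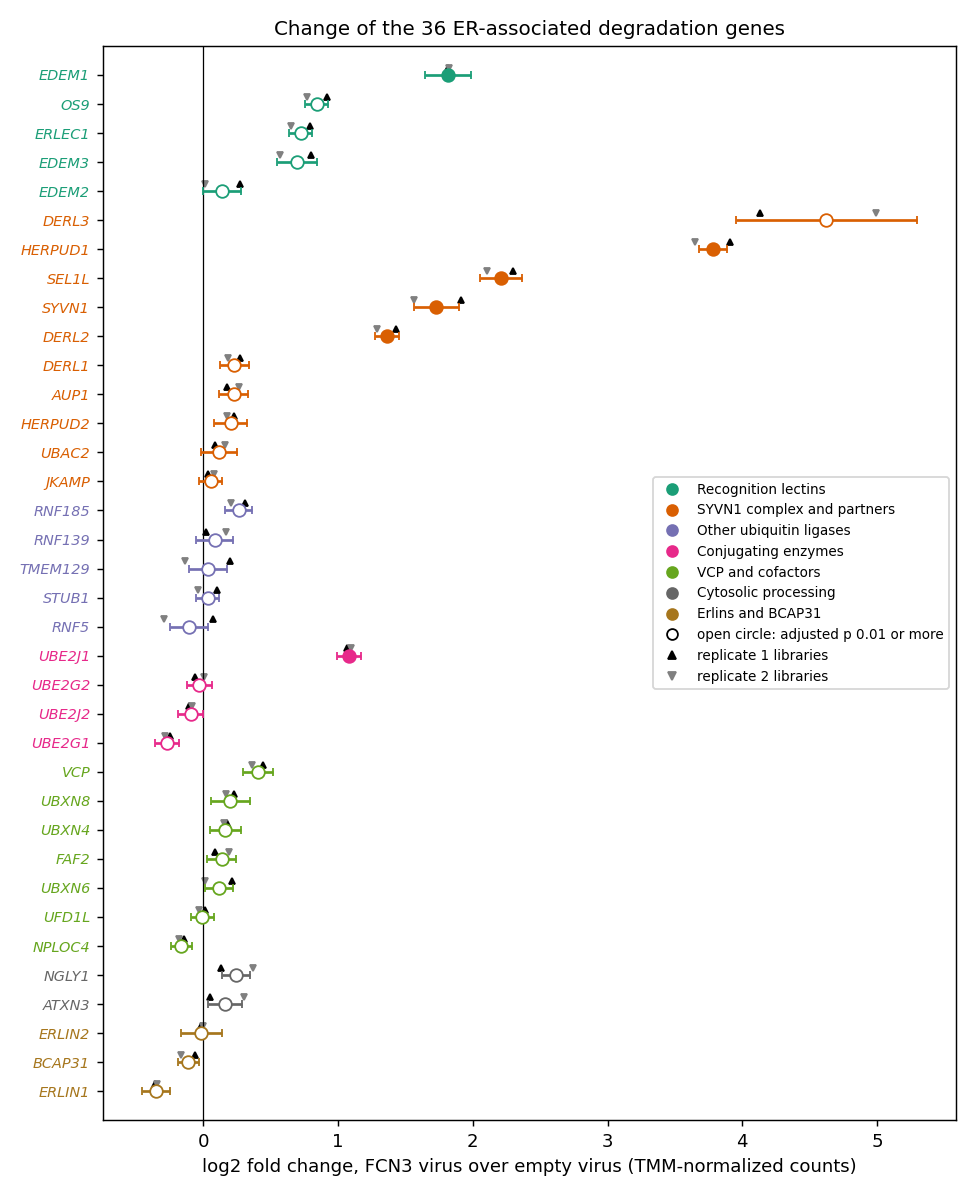
Log2 fold change (x axis, FCN3 virus over EV, TMM-normalized counts) of each of the 36 genes (y axis), grouped by role and ordered by size within a role. Circles are edgeR estimates with their standard errors, filled where the adjusted p is under 0.01, and triangles are the differences between libraries of the same replicate number. The 6 filled genes lie between 1.08 and 3.78, and most open circles sit within 0.3 of 0.

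Levels that are set beside each other across genes are given in TPM, the deposited abundance per transcript length, and fold changes are those of the TMM-normalized counts. TPM add up to the same total in every library, and FCN3 itself is part of that total. The median log2 fold change of all tested genes was -0.072 by limma on log2(TPM + 1), beside 0.016 in TMM-normalized counts. The part of the FCN3 transcript in this shift was not tested. HERPUD1, an ER membrane protein with a ubiquitin-like domain that steadies the SYVN1 complex, showed the largest change among the called members. Its level was 40.8 and 45.8 TPM in the EV libraries and 563 and 542 TPM in the FCN3 libraries. The groups were far apart, and the libraries of a group differed little. edgeR gave a log2 fold change of 3.78 (standard error 0.11) with an adjusted p of 4.0e-04, a 13.7-fold increase that ranked 20 among the 14099 genes. HERPUD2, its paralogue, stood at 13.2 and 14.5 TPM against 14.2 and 15.4 TPM, which is a log2 fold change of 0.20 (standard error 0.12, edgeR adjusted p = 0.37, and 0.048 with the replicate block). The ratio of HERPUD1 to HERPUD2 in TPM was 3.08 and 3.16 in EV cells and 39.5 and 35.2 with the FCN3 virus. The HERPUD1 gene occupies chromosome 16 of GRCh37 from 56966054 to 56978776.

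SEL1L, the adaptor that joins the lectins to the ligase, was at 32.3 and 28.1 TPM in the EV libraries and at 145 and 115 TPM in the FCN3 libraries. All of the FCN3 values exceeded the EV values, and replicate 1 was the higher library in both groups. Its log2 fold change was 2.21 (standard error 0.15, edgeR adjusted p = 0.0035), or 4.62-fold. SYVN1, the ligase itself, rose from 18.7 and 25.7 TPM to 64.8 and 71.5 TPM, this time with replicate 2 higher in both groups. The log2 fold change of SYVN1 was 1.73 (standard error 0.17), and its edgeR adjusted p of 0.0099 lay just inside the threshold. The TPM ratio of SEL1L to SYVN1 went from 1.72 to 2.25 between the replicate 1 libraries and from 1.09 to 1.60 between the replicate 2 libraries. The EV range of this ratio, 1.09 to 1.72, overlaps with the FCN3 range of 1.60 to 2.25, and whether the 2 genes rose by different amounts was not tested. SEL1L lies on chromosome 14 of GRCh37 (81937891 to 82000197, minus strand) and SYVN1 on chromosome 11 (64889252 to 64902003, minus strand). Exons of FAU on the same strand and of MRPL49 on the opposite strand overlap those of SYVN1.

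The derlins, membrane proteins thought to help move substrates across the ER membrane, differed among themselves. DERL2 was at 90.1 and 90.5 TPM in EV cells and at 223 and 208 TPM with the FCN3 virus. Its log2 fold change was 1.36 (standard error 0.09, edgeR adjusted p = 0.0031), with no overlap between groups. Exons of MIS12 on the opposite strand overlap those of DERL2. DERL1 was at 48.0 and 43.9 TPM against 53.3 and 46.9 TPM, so that the groups overlapped in TPM though not in TMM-normalized counts, where its log2 fold change was 0.23 (standard error 0.11, edgeR adjusted p = 0.26, and 0.0010 with the replicate block). DERL3, a derlin typical of secretory tissues, was the least abundant member in EV cells, at 0.24 and 0.19 TPM, and reached 4.15 and 6.48 TPM. These levels came from expected counts of 9 and 5 in the EV libraries against 147 and 189 in the FCN3 libraries. The fitted log2 fold change of 4.63 was the largest of the 36 and had the widest standard error (0.67, with an edgeR adjusted p of 0.022 without and 2.0e-19 with the replicate block). With 1 library left out, which leaves the spread of that group to be taken from the other, the edgeR adjusted p of DERL3 was 0.0027 without FCN3 replicate 1, 0.0051 without FCN3 replicate 2, 0.052 without EV replicate 1 and 0.017 without EV replicate 2. DERL3 exons overlap those of SMARCB1 on the opposite strand. Even after this change DERL3 stood at 0.0779 and 0.138 of the level of DERL1, while the TPM ratio of DERL2 to DERL1 went from 1.88 and 2.06 to 4.18 and 4.44.

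None of the other partners of the complex passed the test without the block. AUP1, which brings the conjugating enzyme UBE2G2 to the ER membrane, was at 226 and 247 TPM against 235 and 280 TPM, with a log2 fold change of 0.22 (edgeR adjusted p = 0.28, and 3.6e-04 with the replicate block). UBAC2, a membrane protein with a ubiquitin-binding domain, had a log2 fold change of 0.12 (standard error 0.13). JKAMP, a membrane protein that links the complex to the proteasome, had 0.05 (standard error 0.09), a sign that turned when TPM was used as the scale. Of the 10 genes of this group 4 were called higher without the block and 7 with it, against 0.738% and 19.1% of all tested genes. The median log2 fold change of the 10 was 0.79.

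**Figure D2:**
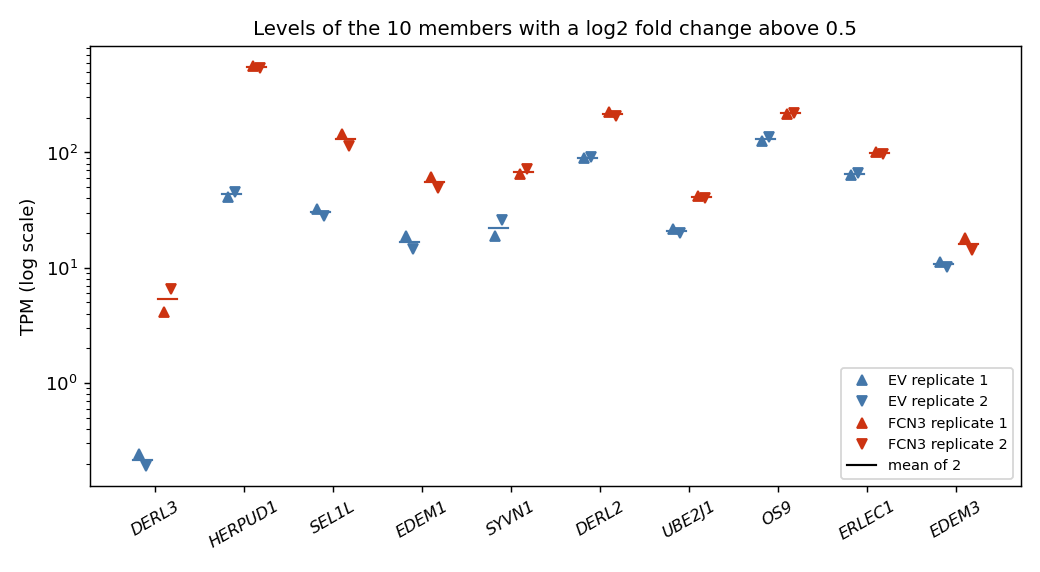
TPM on a log scale (y axis) of the 10 members with a log2 fold change above 0.5 (x axis, in order of fold change) in each of the 4 libraries, EV in blue and FCN3 in red, with a bar at the mean of 2. In every gene both red points lie above both blue points, from 0.24 and 0.19 against 4.15 and 6.48 TPM in DERL3 to 11.3 and 10.1 against 18.02 and 14.2 TPM in EDEM3. The genes were picked by fold change in these same libraries, so this separation follows in large part from the choice. In TMM-normalized counts 28% of all tested genes showed it.

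Among the 5 genes of substrate recognition 1 was called higher without the block and 4 with it, against 0.738% and 19.1% of all tested genes. EDEM1, a mannosidase-like protein that marks glycoproteins for degradation, was at 18.9 and 14.7 TPM in EV cells and at 61.1 and 48.9 TPM with the FCN3 virus. In edgeR this was a log2 fold change of 1.81 (standard error 0.17) with an adjusted p of 0.0087, and it was 1.82 between the libraries of either replicate number. EDEM3, of the same family, went from 11.3 and 10.1 TPM to 18.02 and 14.2 TPM, a log2 fold change of 0.69 whose adjusted p was 0.056 in edgeR and 1.8e-12 with the replicate block. EDEM2 was the exception in the family, at 44.3 and 56.4 TPM against 49.4 and 53.2 TPM. The EDEM2 libraries of the groups overlapped, and its log2 fold change of 0.14 (standard error 0.14, edgeR adjusted p = 0.60) was not called with the block either. Of the 3 relatives EDEM2 was thus the most abundant in EV cells, and in FCN3 cells the EDEM1 libraries (61.1 and 48.9 TPM) overlapped with those of EDEM2.

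OS9 and ERLEC1, the lectins that bind trimmed sugar chains, had similar fold changes. OS9 was at 125 and 136 TPM in EV cells and at 217 and 219 TPM with the FCN3 virus. ERLEC1 was at 63.7 and 66.2 TPM against 101 and 97.8 TPM. Neither gene showed an overlap between groups. Their log2 fold changes of 0.84 and 0.72 (standard errors 0.09 and 0.08) missed the threshold narrowly, with adjusted p of 0.011 and 0.013 in edgeR, and passed it with the replicate block (7.6e-20 and 8.0e-16). With 1 library left out, the edgeR adjusted p of OS9 was 0.0065 without EV replicate 2, with the spread then taken from the FCN3 libraries, and 0.014 to 0.034 without any other library. The TPM ratio of OS9 to ERLEC1 ran from 1.96 to 2.06 in EV cells and from 2.13 to 2.24 with the FCN3 virus. Exons of AGAP2 overlap those of OS9, and exons of ASB3 those of ERLEC1, each on the opposite strand.

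Among the ubiquitin-conjugating enzymes UBE2J1, the partner of SYVN1 that is anchored in the ER membrane, stood apart. UBE2J1 was at 21.6 and 19.97 TPM in the EV libraries and at 41.6 and 40.3 TPM in the FCN3 libraries. Its log2 fold change was 1.08 (standard error 0.09, edgeR adjusted p = 0.0064), and the 2 comparisons within replicate numbers gave 1.06 and 1.10. Without FCN3 replicate 1, where the spread comes from the EV libraries, the edgeR adjusted p of UBE2J1 was 0.019 and the call was lost. UBE2G1, a cytosolic conjugating enzyme, was at 69.3 and 64.7 TPM against 53.6 and 49.96 TPM. Both FCN3 libraries of UBE2G1 were below both EV libraries. Its log2 fold change of -0.27 (standard error 0.09) had an edgeR adjusted p of 0.14, and of 4.2e-05 with the replicate block. UBE2J2 and UBE2G2 had log2 fold changes of -0.10 and -0.03, neither called in either fit. The TPM ratio of UBE2J1 to UBE2J2 went from 0.667 and 0.644 in EV cells to 1.503 and 1.46 with the FCN3 virus.

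The ubiquitin ligases outside the SYVN1 complex showed no call without the block. RNF185, an ER membrane ligase, had the largest change of the 5, a log2 fold change of 0.26 (standard error 0.10, edgeR adjusted p = 0.19, and 0.0019 with the replicate block) from 20.4 and 22.3 TPM to 23.2 and 24.0 TPM. RNF5, a close relative of RNF185, was at 42.4 and 52.2 TPM against 41.1 and 40.1 TPM, with a log2 fold change of -0.11. Its near-identical copy RNF5P1 had between 2.03 and 10.1 expected counts, against 451 to 817 for RNF5. RNF139, TMEM129 and STUB1, the last a cytosolic ligase that works with chaperones, had log2 fold changes of 0.08, 0.03 and 0.03, and all 3 turned sign on the TPM scale.

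VCP, the ATPase that extracts the tagged proteins, was the most abundant member in EV cells. Its level was 453 and 410.1 TPM in EV cells and 567 and 497 TPM with the FCN3 virus. Both FCN3 values lay above both EV values, and the log2 fold change of 0.41 had a standard error of 0.11 and an edgeR adjusted p of 0.094, which missed the threshold. With the replicate block VCP was called, with an adjusted p of 6.4e-10. NPLOC4 and UFD1L form the dimer through which VCP grips ubiquitin chains. NPLOC4 was at 108 and 105 TPM against 90.3 and 87.2 TPM, lower in both FCN3 libraries, with a log2 fold change of -0.16 (standard error 0.08, edgeR adjusted p = 0.27, and 0.0065 with the block). UFD1L had a log2 fold change of -0.01 (standard error 0.09). FAF2, UBXN4, UBXN6 and UBXN8, which recruit VCP through UBX domains, had log2 fold changes between 0.12 and 0.20, none of them called in either fit.

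Of the enzymes that act after extraction and the remaining membrane proteins none was called without the block. NGLY1, which strips sugar chains in the cytosol, was at 33.4 and 29.96 TPM against 33.6 and 36.6 TPM, with a log2 fold change of 0.24 (edgeR adjusted p = 0.22, and 0.0036 with the replicate block). ATXN3, a deubiquitinase that binds VCP, had a log2 fold change of 0.16 (standard error 0.13). ERLIN1 showed the lowest value of the 36. It forms, with ERLIN2, a ring-shaped complex in the ER membrane, and was at 80.4 and 70.3 TPM in EV cells and at 57.7 and 52.3 TPM with the FCN3 virus. Both FCN3 libraries were below both EV libraries. ERLIN1 had a log2 fold change of -0.35 (standard error 0.11), with an edgeR adjusted p of 0.12, and of 4.8e-07 with the replicate block. ERLIN2, at 27.5 and 22.2 TPM against 25.2 and 20.8 TPM, had -0.02 (standard error 0.15), and the TPM ratio of ERLIN1 to ERLIN2 was 2.92 and 3.16 in EV cells against 2.29 and 2.52 with the FCN3 virus. BCAP31, an abundant ER membrane sorting protein, was at 313 and 330 TPM against 276 and 277 TPM, with a log2 fold change of -0.11 that was not called in either fit.

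In the order of levels within the machinery HERPUD1 moved to the top, while VCP, BCAP31 and AUP1 kept their order among themselves. In EV cells the most abundant members were VCP, BCAP31 and AUP1, at 431, 321 and 236 TPM on average, and HERPUD1 ranked 19 of the 36 at 43.3 TPM. With the FCN3 virus HERPUD1 ranked 1 at 553 TPM, ahead of VCP at 532 TPM, though their libraries overlapped (542 and 563 TPM against 497 and 567 TPM). SEL1L moved from rank 24 to 7, SYVN1 from 26 to 11 and EDEM1 from 32 to 17. Many neighbours in the middle of the order, such as UBXN4, JKAMP and FAF2 at 62.4, 59.7 and 53.9 TPM in EV cells, overlapped in their libraries with the next gene in order. At the bottom ATXN3 and DERL3 remained the 2 least abundant members, at 4.97 and 5.32 TPM with the FCN3 virus.

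**Figure D3:**
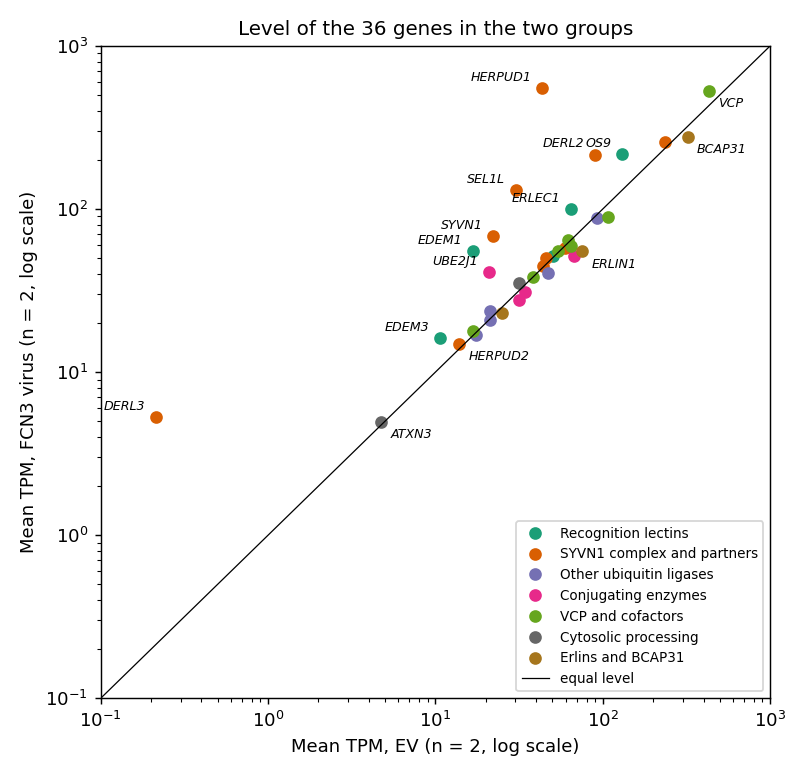
Mean TPM with the FCN3 virus (y axis, n = 2) against mean TPM in EV cells (x axis, n = 2), both on log scales, for the 36 genes coloured by role, with a line of equal level. Most genes lie along the line, and HERPUD1 (43.3 and 553 TPM), SEL1L (30.2 and 130.04 TPM) and DERL3 (0.215 and 5.32 TPM) lie farthest above it.

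Summed over the 36 genes, the machinery took 2445 and 2444 TPM in the EV libraries and 3487 and 3370 TPM in the FCN3 libraries, a 1.40-fold difference. The net difference of the means was 984 TPM, made up of 1110 TPM from members with a higher mean and -126 TPM from members with a lower one. HERPUD1 supplied 45.9% of the former, or 509 TPM, followed by DERL2 with 125 TPM, VCP with 101 TPM, SEL1L with 99.9 TPM and OS9 with 87.3 TPM. Without HERPUD1 the sum was 1.198-fold higher. All these sums are in TPM, where the median of all tested genes was lower with the FCN3 virus. A lower mean TPM thus need not be a lower normalized count, as in JKAMP and STUB1. By role, the SYVN1 complex and its partners went from 580 and 592 TPM to 1408 and 1383 TPM and the genes of substrate recognition from 263 and 284 TPM to 447 and 433 TPM. The 5 other ligases summed to 193 and 207 TPM against 193 and 187 TPM, and the conjugating enzymes to 157 and 150.2 TPM against 153 and 150.4 TPM. VCP and its cofactors came to 793 and 754 TPM against 889 and 824 TPM. With 2 libraries against 2, an exact two-sided permutation test of such a sum cannot give a p below 0.333, and none is given.

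**Figure D4:**
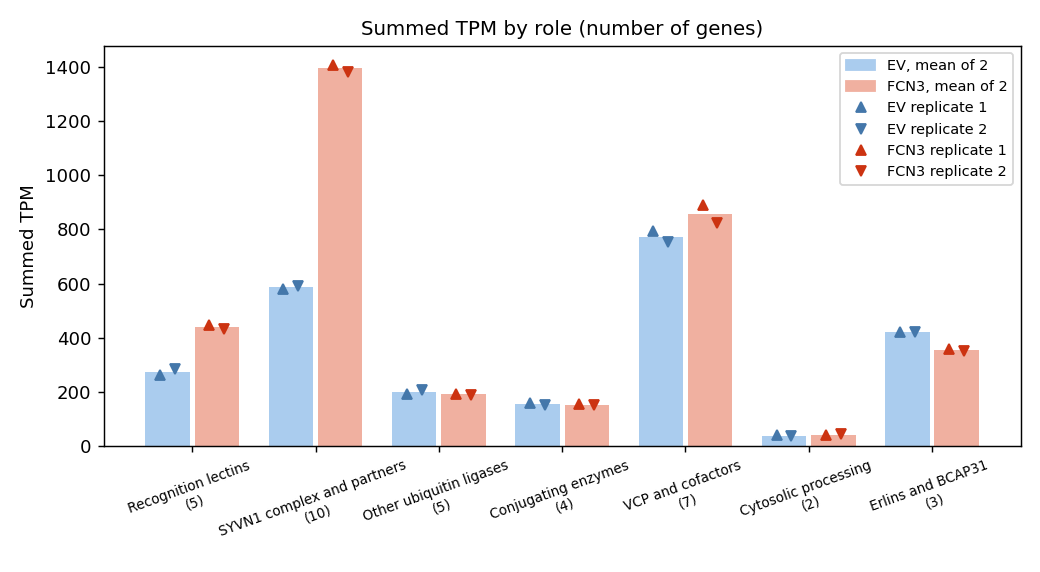
Summed TPM (y axis, from 0) of the genes of each role (x axis, number of genes in brackets), with bars for the mean of 2 libraries and triangles for single libraries, EV in blue and FCN3 in red. The SYVN1 complex and its partners show the widest gap, 586 against 1396 TPM, and the erlins with BCAP31 are lower in both FCN3 libraries, 421 against 354 TPM on average.

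A further 47 genes of the same pathway that are not among the 36 were listed to see whether they followed. Of these 3 were called higher and 0 lower in edgeR without the block, against 0.738% and 0.227% of all tested genes. At an unadjusted p under 0.05 in that fit, 5 were lower (11.6% of all tested genes). DESeq2 called 10 higher and 2 lower (4.35% and 3.29% of all tested genes). With the replicate block 18 were higher and 6 lower, against the same backgrounds of 19.1% and 17.1%, and their median log2 fold change was 0.03. DNAJB9, an ER chaperone partner that delivers misfolded proteins for degradation, was at 8.11 and 7.65 TPM in EV cells and 70.4 and 60.0 TPM with the FCN3 virus (log2 fold change 3.15, edgeR adjusted p = 0.0012). SDF2L1, an ER lumenal protein bound to chaperone complexes, was at 49.0 and 43.5 TPM against 303 and 256 TPM (log2 fold change 2.69, edgeR adjusted p = 0.0019). DNAJC10, a reductase that opens disulfide bonds before export, was at 84.6 and 83.6 TPM against 187 and 186 TPM (log2 fold change 1.25, edgeR adjusted p = 0.0030). In each of the 3 the groups did not overlap, but the 3 were picked by their call in these same libraries. Both FCN3 libraries were above both EV libraries in 28% of all tested genes.
Among the lowest values in that list were those of FOXRED2 and SVIP. FOXRED2, an ER flavoprotein that binds OS9 and SEL1L, was at 19.6 and 19.3 TPM against 12.4 and 12.0 TPM (log2 fold change -0.57, edgeR adjusted p = 0.029 without and 9.0e-10 with the block). SVIP, a small inhibitor of ER-associated degradation, had a log2 fold change of -0.42 (edgeR adjusted p = 0.26 without and 0.0014 with the block). Both genes, picked for their low fold change, were lower in both FCN3 libraries than in both EV libraries, as were 26.5% of all tested genes.

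The libraries held 35733735 and 16353554 expected counts (EV) and 35031565 and 20136068 (FCN3), so that the deeper library was replicate 1 in both groups, and a floor of 3 counts corresponds to 0.0840 to 0.183 CPM, for counting error only. Epithelial keratins KRT8 and KRT18 stood between 1612 and 2789 TPM, KRT19 was at 32.6 and 52.4 TPM in EV cells and 87.2 and 97.9 TPM with the FCN3 virus, and EPCAM and CDH1 were low, at 1.09 to 3.65 and 3.35 to 9.53 TPM. The 4 markers of A549 summed to 10981 and 11361 TPM in EV cells and to 8421 and 8813 TPM with the FCN3 virus. Of these AKR1B10 stood between 3326 and 3577 TPM, AKR1C1 between 219 and 270 TPM, ALDH1A1 at 5821 and 6415 against 3413 and 3923 TPM and NQO1 at 1419 and 1354 against 1162 and 1150 TPM. The part of these differences in the results for the 36 genes was not tested. The alveolar markers SFTPA1, SFTPB, SFTPC and NKX2-1 were at 0.06 TPM or less, as were the leukocyte markers PTPRC, CD3E and LYZ, and the alveolar marker NAPSA was between 0.28 and 0.98 TPM. The leukocyte marker CD68, a lysosomal protein that many other cells also make, was at 33.9 and 35.7 TPM in EV cells and 61.9 and 49.8 TPM with the FCN3 virus. In GENCODE, exons of 13 of the 36 genes overlap those of another gene in the tables. The counting used RefSeq transcripts, whose overlap was not checked. Although the library kit marks strand, the strand setting of the counting is not given in the sources used here. Where the counted transcripts overlap too, shared reads could enter the values of these genes. For SYVN1 and FAU, which lie on the same strand, that setting would not separate such reads.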

How the data were processed

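RNA-seq libraries of A549 cells, 2 EV and 2 FCN3, were grouped by their titles. The authors trimmed reads, aligned them to hg19 with STAR 2.6.1d (version also in the submitters' processing notes) and estimated abundance with RSEM on RefSeq transcripts. Per gene, the files the authors deposited hold RSEM's expected count without normalization, TPM and FPKM, both normalized by length and depth, and mean transcript lengths in bases. FPKM was not used. Expected counts were rounded and tested in R 4.3.3 with edgeR 4.0.16 (TMM, filterByExpr, glmQLFit with legacy = FALSE, glmQLFTest, Benjamini-Hochberg adjustment over 14099 genes, FDR 0.01). Each standard error was taken as the size of the log2 fold change over the root of its F statistic. TPM served for levels. Totals of 16353554 to 35733735 counts set the precision.

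Alternatives were DESeq2 1.42.0, RLE factors, FCN3 left out, other filters, the replicate number as a block, limma 3.58.1 on log2(TPM + 1) and log2(TPM + 0.1), other thresholds and each library left out. The methods were tested on simulated data, where the edgeR fit without the block missed the known differences when libraries of the same number shared a deviation, and the fit with the block recovered most of them. That deviation was made identical in both groups, which favours the block by construction. The simulation therefore cannot tell which fit suits the real libraries. The members, the list of 47 further genes and the motifs were chosen with earlier results of these data known. Values in every library are given by rule for members called without the block, members called lower with it and the 3 most abundant, and for other members as chosen after their values were seen. From the further genes, the rule named those called and the 3 lowest, and some of the listed genes and markers are not reported here. Gene positions and exon overlaps come from GENCODE on GRCh37. Promoters come from the RefSeq table of GRCh38.p14, located by exact match on GRCh37. The library kit was TruSeq Stranded mRNA, and the strand setting of the counting is not given in the sources used here.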

Additional observations from a re-analysis of the deposited data

How the results depend on the processing

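The count of members called higher, 6 in the edgeR fit, was 10 with DESeq2 and 15 with the replicate block. It was 11 with the block in DESeq2 and 3 with limma on log2(TPM + 1). The count called lower, 0 in the edgeR fit, was 3 with the block and 2 with the block in DESeq2. The share of all tested genes called higher and lower was 4.35% and 3.29% with DESeq2, 19.1% and 17.1% with the block, 8.12% and 7.89% with the block in DESeq2, 0.525% and 0.22% with limma, and 4.43% and 2.77% in edgeR at an FDR of 0.05. For the 47 further genes, the count higher went from 3 to 10 with DESeq2, 18 with the block, 10 with the block in DESeq2 and 10 at an FDR of 0.05, and ran from 3 to 5 with a library left out, with 5 without either EV replicate. The count lower went from 0 to 2 with DESeq2, 6 with the block, 3 with the block in DESeq2 and 2 at an FDR of 0.05, and was 0 with any library left out. The cause of these differences was not tested. In the fits with a library left out, the group with 1 library was assumed to vary like the other group. Libraries of the same number deviated together. Pearson's r between the replicate 1 minus 2 differences of the groups was 0.81 across 8310 genes and 0.53 across the 36 members. The labels do not say that a number marks a shared culture or day.

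The median log2 fold change of the members, 0.16, was 0.057 by limma with TPM plus 1 and 0.063 with TPM plus 0.1 on the log2 scale, where the median of all genes moved from 0.016 to -0.072 and -0.087, which left the members 0.13 and 0.15 above all genes. With a library left out it ran from 0.157 to 0.190. EDEM1, SYVN1 and UBE2J1 missed the threshold on both TPM scales (adjusted p from limma 0.012 to 0.015), and UBE2J1 also without FCN3 replicate 1 (edgeR adjusted p = 0.019). On the 2 TPM scales the sign turned for JKAMP (-0.048 and -0.049), RNF139 (-0.0098 and -0.010), TMEM129 (-0.057 and -0.060) and STUB1 (-0.073 and -0.074). With a library left out the sign turned within these ranges, for EDEM2 from -0.027 to 0.31, UBAC2 from -0.021 to 0.28, JKAMP from -0.0012 to 0.12, RNF139 from -0.059 to 0.26, RNF5 from -0.25 to 0.039, TMEM129 from -0.11 to 0.17, STUB1 from -0.010 to 0.068, UBE2G2 from -0.086 to 0.023, UFD1L from -0.036 to 0.022 and ERLIN2 from -0.17 to 0.16. The log2 fold change of DERL3 ran from 4.01 to 5.14 with a library left out.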

Other observations

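RSEM reports for each gene a mean transcript length weighted by abundance, which moves when the mix of transcripts changes. In 35 members, DERL3 left aside, this length differed between the groups by at most 0.834%. In DERL3 it was 2070 and 3099 bases in the EV libraries and 1928 and 2680 bases in the FCN3 libraries, from the few counts given above.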
